A study of Drosophila melanogaster with 6 samples.

Results

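The respiratory chain consists of 4 large complexes in the inner mitochondrial membrane that pass electrons from NADH and succinate to oxygen. The genes described here are those that the supplementary gene catalogue of the study places under oxidative phosphorylation, in every subgroup other than ATP synthase. They were found on the array by CG number or symbol, and where a gene had several probe sets (groups of oligonucleotides for 1 transcript) the one with the highest mean log2 signal over all samples was taken. Of 74 listed genes 60 were measured, out of 11982 genes in all. They comprise 29 genes of complex I, 3 of complex II, 9 of complex III, 11 of complex IV and 8 assembly factors and electron carriers listed as others. ND-23, ND-24, ND-30, ND-49, ND-49L, ND-B15, SdhA, UQCR-C1, UQCR-C2, CG10731, Cyt-c-p, Cyt-c-d, Etfb and Etf-QO were not analysed here.

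Transcripts were measured on Affymetrix Drosophila Genome 2.0 arrays in the larval fat body, the fly tissue that stores nutrients as liver and adipose tissue do in mammals. The *delg* mutant was delg613/Df(3R)ro80b, a stop codon allele over a deletion of the locus, and the control was +/Df(3R)ro80b, so that both genotypes carried 1 copy of the deletion and control cells had a single functional copy of *delg*. *delg* (Ets97D) encodes the fly homologue of the alpha subunit of NRF-2/GABP, an ETS transcription factor known in mammals as an activator of respiratory chain genes. Each genotype had 3 biological replicates, each a pool of 60 fat bodies. The labels describe the larvae of all 6 samples as mutant and 6 days old, so the age of the control larvae is not settled by them. The study describes the larvae of both genotypes as wandering, late in the last larval stage. Signals are MAS5 intensities, scaled to a trimmed mean of 500 on each array. Differences were tested on the log2 scale with limma, with p-values adjusted over 18769 probe sets, and called at an adjusted p under 0.05. With 3 arrays a group, their number limits the precision. The probe set of Ets97D had signals of 71.7, 87.1 and 91.9 in the mutant and 135, 122 and 213 in the control. All mutant samples lay below all control samples, but the difference did not pass the threshold (log2 fold change -0.87, standard error 0.38, limma adjusted p = 0.267).

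Complex I takes electrons from NADH and complex II takes them from succinate, both passing them to ubiquinone. Complex III moves them on to cytochrome c, and complex IV, cytochrome c oxidase, reduces oxygen. Core subunits hold the flavins, iron-sulphur clusters and hemes through which electrons travel, or anchor them, and are shared with bacteria. Accessory subunits surround them and are known for roles in assembly and stability. Several core subunits, among them all those of complex IV and the cytochrome b of complex III, are encoded by mitochondrial DNA and are not on the list. For some nuclear subunits the fly genome holds a second, related gene that is known mainly from the testis, called a testis-type paralog here. By this division 8 measured members were core subunits, 36 accessory subunits, 8 assembly factors or carriers and 8 testis-type paralogs.

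Control replicate 2 differed in its marker genes from the other 5 samples. Sgs3, a glue gene of the salivary gland, was at 53479, 56729 and 58677 in the mutant samples and at 74489, 2.53 and 62598 in control replicates 1, 2 and 3, and all 5 measured glue genes were lowest in control replicate 2. Fbp1, a fat body receptor for storage proteins, was at 1103 in control replicate 2 and between 40320 and 65884 in the others. Lsp2, a storage protein made by the fat body, was at 57153 to 75546 in all 6 samples. After adjustment 0 of the 3 fat body and 0 of the 5 salivary gland markers were called. Marker genes of other tissues also moved. All 4 hemocyte markers were higher in every mutant sample than in every control sample, against 14.5% of all genes. In NimC1 the margin was narrow, with 158 in the lowest mutant sample and 154 in the highest control. Only *Pxn* was called (limma adjusted p = 0.0438). Summed signals were 5426 to 8046 in the mutant and 3429 to 3640 in the control. Most of these sums came from srp alone, at 4344 to 6126 in the mutant and 2698 to 3279 in the control. They therefore describe mainly this 1 gene, and whether its RNA came from hemocytes or from the fat body was not tested. The 4 measured muscle markers had log2 fold changes below 0, with sums of 113 to 311 in the mutant and 469 to 751 in the control. Of these only *Mlc1* did not overlap between genotypes, and *Mlc2* was below the array median in all samples. Of 5 midgut markers only LManII was called, and it was higher (limma adjusted p = 0.0168), against 4.45% of all genes. Its signals were 18212 to 23206 in the mutant and 3530 to 9606 in the control. In mutant replicates 2 and 3 the other midgut markers were at only 1.76 to 21.5. The others did not move together. Log2 fold changes were -2.34 for Jon65Aiv and -2.01 for lambdaTry, but 1.85 for Mal-A1 and 0.69 for Jon99Ci. Jon99Ci and lambdaTry were below every array median. The protease gene Jon65Aiv reached 43059 in mutant replicate 1 against 2.17 to 5416 elsewhere. The part of these tissues in the results below was not tested, and neither was the larval stage of each sample, that of control replicate 2 included. In whole-tissue RNA fewer cells of a type and less RNA per cell cannot be told apart.

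Respiratory chain transcripts lay lower in *delg* mutant fat bodies, but none passed the test. After adjustment over all probe sets 0 of the 60 members were lower and 0 were higher at an adjusted p under 0.05 (limma), while 3.75% of all genes were called lower and 4.45% higher. At an unadjusted p under 0.05, 16 members (26.7%) were lower and 0 higher, against 11.7% of all genes lower and 11.3% higher. With each array centred on its own median, 0 members were called in either direction, against 2.4% of all genes lower and 5.73% higher. The number lower at an unadjusted p under 0.05 was then 7, or 11.7% of the members, against 8.63% of all genes. The smallest adjusted p among the members was 0.0581, for RFeSP. The methods' t-test gave 4 lower and 0 higher at an unadjusted p under 0.05, against 10.4% and 10.2% of all genes. After Benjamini-Hochberg adjustment it gave 0 in either direction, against 0.893% of all genes lower and 1.14% higher.

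The size and direction of the differences are described here by counts. The log2 fold change, mutant minus control, lay below 0 for 56 of the 60 members (54.4% of all genes), and its median was -0.66 over the members and -0.09 over all genes. At least 1.5-fold lower were 33 members, 55.0% of them, against 27.5% of all genes. With centred arrays 27 members were lower by this much, against 22.6% of all genes. UQCR-11 was the 1 member at least 1.5-fold higher, against 21.6% of all genes. For 22 members (36.7%) every mutant sample lay below every control sample, against 15.6% of all genes. The reverse held for 0 members and 14.5% of all genes.

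Control replicate 2 carried much of this difference. It was the highest of the 6 samples for 49 of the 60 members (81.7%), while it was the highest for 23.7% of all genes. It lay at least 2-fold above the mean of the other control samples for 33 members (55.0%), against 15.8% of all genes. The median signal of the members was 868, 649 and 745 in mutant replicates 1, 2 and 3 and 911, 1796 and 907 in control replicates 1, 2 and 3. Set against single control samples, the mean of the mutant samples had a median log2 difference of -0.26 from control replicate 1, -1.38 from control replicate 2 and -0.44 from control replicate 3, where all genes had medians of -0.08, -0.02 and -0.21. The number of members at least 1.5-fold lower was 11, 50 and 19 in these comparisons. These are 18.3%, 83.3% and 31.7% of the members, against 29.2%, 31.5% and 35.3% of all genes, so against control replicates 1 and 3 the share of the members was the smaller. Among the mutant samples, replicate 2 was most often the lowest of all 6, for 31 members. The median SD of the log2 signal over replicates was 0.36 in the mutant, 0.72 in the control and 0.22 over control replicates 1 and 3 alone.

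**Figure D1:**
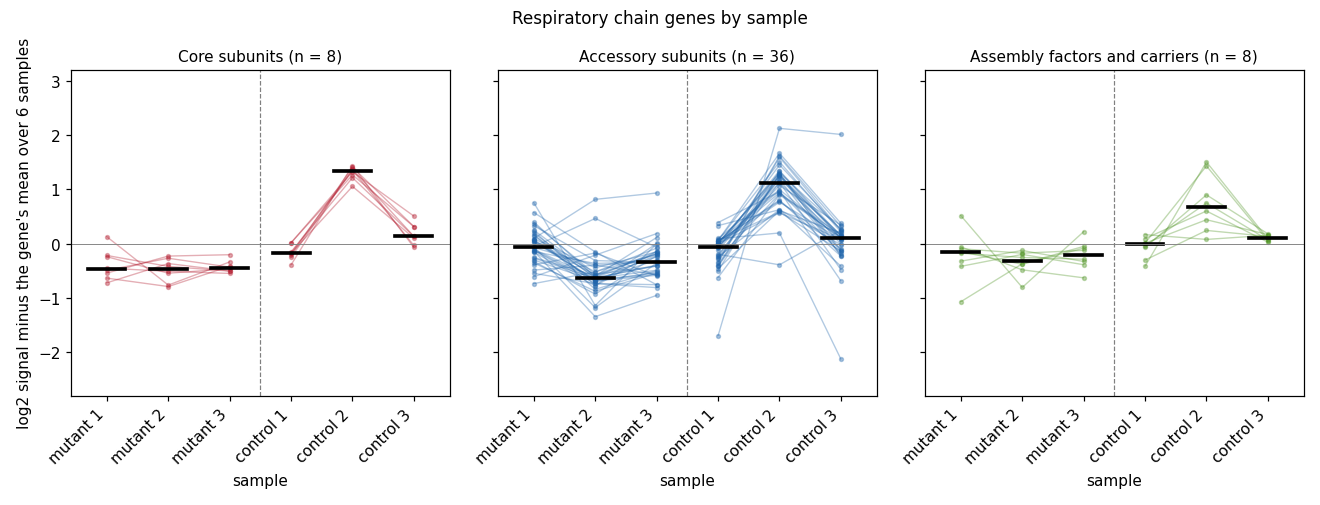
Log2 signal of each respiratory chain gene minus its own mean over the 6 samples (y axis), for mutant and control replicates 1 to 3 (x axis), with 1 line a gene within each genotype and a black bar at the median. In control replicate 2 the medians were 1.34 for 8 core subunits, 1.13 for 36 accessory subunits and 0.67 for 8 assembly factors and carriers, while in the other control samples they lay between -0.18 and 0.13.

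When control replicate 2 was left out, a smaller difference remained. The median log2 fold change of the members was then -0.32 and that of all genes -0.13, and 49 members lay below 0 (56.2% of all genes). At least 1.5-fold lower were 13 members, or 21.7%, a smaller share than the 30.2% of all genes. UQCR-11 was again the 1 member at least 1.5-fold higher, against 20.8% of all genes. At an unadjusted p under 0.05, 13 members were lower and 0 higher, against 13.9% and 12.4% of all genes. After adjustment 3 members were lower and 0 higher, against 5.28% and 5.96% of all genes. These 3 were RFeSP, ND-B17 and Cyt-c1L (limma). For 25 members (41.7%) the mutant samples lay below both remaining controls, against 25.2% of all genes. Of the 52 members that are not testis-type paralogs, the 7 still at least 1.5-fold lower were RFeSP, ND-75, ND-B17, ND-SGDH, ND-ASHI, ND-B8 and COX5A.

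The list held 13 core subunits, of which ND-23, ND-24, ND-30, ND-49 and SdhA were not analysed. All 8 measured core subunits were at least 1.5-fold lower (27.5% of all genes), with log2 fold changes of -1.23 to -0.65 and a median of -0.81. None was called after adjustment. At an unadjusted p under 0.05, 4 were lower (11.7% of all genes), and for 5 the genotypes did not overlap (15.6% of all genes). In all 8, control replicate 2 was the highest sample and lay at least 2-fold above the mean of the other controls. Their replicates in the mutant were close together, with a median SD of 0.17 on the log2 scale, against 0.77 in the control and 0.22 over control replicates 1 and 3. Without control replicate 2 all 8 lay below 0, with a median of -0.37, and 2 of them were at least 1.5-fold lower, a share of 25% against 30.2% of all genes.

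RFeSP, the Rieske iron-sulphur protein of complex III, was the core subunit with the smallest p. Its signal was 1946, 1748 and 2264 in mutant replicates 1, 2 and 3, against 3056, 7560 and 4293 in control replicates 1, 2 and 3. No mutant sample reached the lowest control (log2 fold change -1.23, standard error 0.31, limma adjusted p = 0.0581). Without control replicate 2 it differed by -0.88 and passed the threshold (limma adjusted p = 0.0306). A dimmer probe set of RFeSP, at no more than 54.3 in any sample and below every array median, gave -0.14 (standard error 0.71). Cyt-c1, the heme-bearing cytochrome c1 that receives the electrons of the Rieske protein, was at 6256, 6007 and 5850 in the mutant and 7401, 22689 and 10632 in the control. The genotypes did not overlap and the mutant samples were within an SD of 204 (log2 fold change -1.01, standard error 0.37, limma adjusted p = 0.170).

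The 3 measured core subunits of complex I carry parts of the path from NADH to ubiquinone. ND-75, whose human homologue NDUFS1 holds iron-sulphur clusters, had signals of 862, 1102 and 1002 in the mutant, against 1437, 3416 and 1763 in the control. All mutant samples lay below all controls (log2 fold change -1.06, standard error 0.31, limma adjusted p = 0.0937). ND-51, the homologue of the NADH-binding flavoprotein NDUFV1, was at 2504, 2920 and 2607 in the mutant and 3169, 8162 and 3854 in the control, again without overlap (-0.80, standard error 0.33, limma adjusted p = 0.233). ND-20, the homologue of NDUFS7, which holds the last cluster before ubiquinone, was at 2614, 2118 and 2241 in the mutant and 2596, 7972 and 3387 in the control. Its mutant replicate 1 and control replicate 1 were level (-0.83, standard error 0.38, limma adjusted p = 0.281).

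Complex II, succinate dehydrogenase, is also an enzyme of the tricarboxylic acid cycle and is encoded wholly in the nucleus. SdhD, a membrane anchor, was at 1060, 922 and 868 in the mutant and 1093, 3149 and 1204 in the control, so that mutant replicate 1 and control replicate 1 were nearly level (-0.76, standard error 0.38, limma adjusted p = 0.331). SdhC, the other anchor, was at 1632, 881 and 1184 in the mutant and 1320, 3103 and 1605 in the control, and mutant replicate 1 lay above control replicates 1 and 3 (-0.65, standard error 0.35, limma adjusted p = 0.379). SdhB, the iron-sulphur subunit, gave -0.65 as well (limma adjusted p = 0.482). Without control replicate 2 the median of complex II was -0.28, and 0 of its 3 genes were at least 1.5-fold lower (30.2% of all genes).

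**Figure D2:**
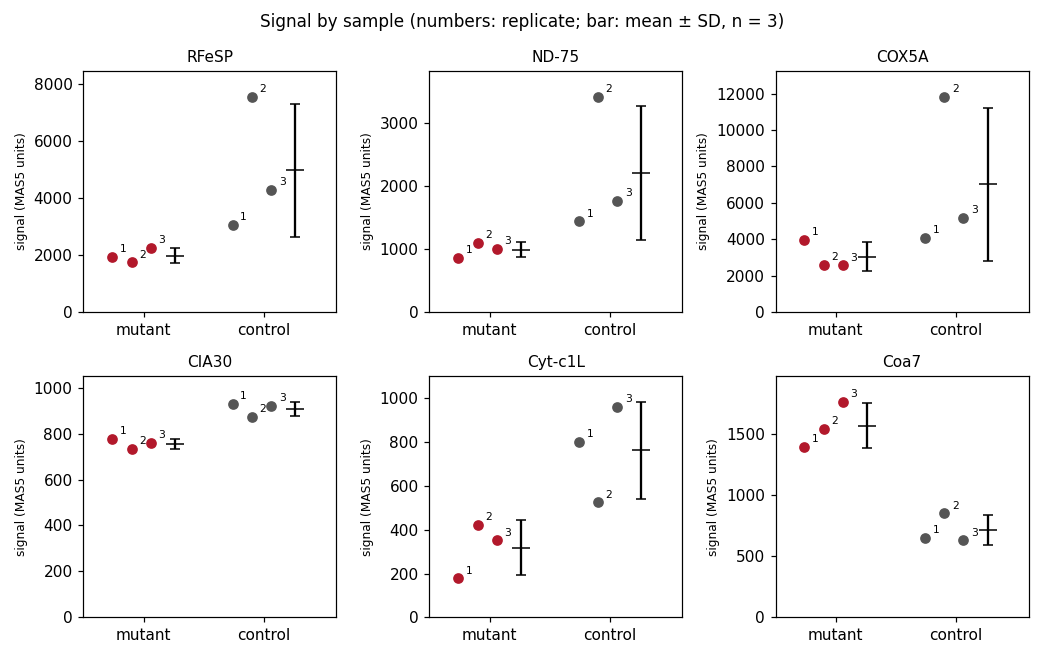
Signal in each sample (y axis, MAS5 units on a linear scale from 0) of RFeSP, ND-75, COX5A, CIA30, Cyt-c1L and Coa7 in the *delg* mutant and the control (x axis), with the replicate number beside each point and mean ± SD (n = 3) at the right of each group. Control replicate 2 stands above the other controls in RFeSP, ND-75 and COX5A but not in CIA30 or Cyt-c1L, and Coa7 is higher in all mutant samples.

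The accessory subunits spread more widely than the core subunits. Their median log2 fold change was -0.62, and 34 of 36 lay below 0, with a range of -1.62 to 1.23 that took in that of the core subunits. The ends of this range were the dim ND-B8 and UQCR-11, with standard errors of 1.16 and 0.76. Next to them stood ND-B17 at -1.40 and CG18809 at 0.22. The range is also over more genes than that of the 8 core subunits. Of the 36, 18 were at least 1.5-fold lower (27.5% of all genes), 9 were lower at an unadjusted p under 0.05 (11.7%), and 10 did not overlap between genotypes (15.6%). With control replicate 2 left out, 5 of the 36 were at least 1.5-fold lower, a share of 13.9% against 30.2% of all genes. Control replicate 2 was the highest sample for 34, and mutant replicate 2 the lowest for 25. The difference in medians between core and accessory subunits, -0.81 and -0.62, was not tested, since genes are not replicates. The medians were -0.37 and -0.27 without control replicate 2.

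In complex I, all 23 accessory subunits lay below 0 with a median of -0.56, and in all 23 control replicate 2 was the highest sample. Among them, 10 were at least 1.5-fold lower, a share of 43.5% against 27.5% of all genes. Without control replicate 2 there were 4, or 17.4%, a smaller share than the 30.2% of all genes. ND-B17, the homologue of NDUFB6 in the membrane arm, was at 1129, 990 and 941 in the mutant, against 1716, 5226 and 2137 in the control. The mutant samples lay below all controls (log2 fold change -1.40, standard error 0.38, limma adjusted p = 0.0707), and without control replicate 2 the difference was -0.91 and passed the threshold (limma adjusted p = 0.0155). Its other probe set gave -1.09 (limma adjusted p = 0.0933). ND-SGDH and ND-ASHI, homologues of the membrane arm subunits NDUFB5 and NDUFB8, differed by -1.18 and -1.05 without overlap (limma adjusted p = 0.108 and 0.107). ND-42, ND-18 and ND-39, homologues of NDUFA10, NDUFS4 and NDUFA9, differed by -0.97, -0.93 and -0.77, also without overlap (limma adjusted p = 0.150, 0.146 and 0.221).

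The ND-ACP probe sets gave like values. This mitochondrial acyl carrier protein, which also serves lipoic acid synthesis, differed by -0.99 with the probe set taken and by -1.18 and -1.02 with the others, with none called (limma adjusted p = 0.148 to 0.290). At the other end stood ND-B14.5B, ND-B12, ND-13A and ND-13B, with log2 fold changes of -0.16, -0.23, -0.24 and -0.26. Without control replicate 2 these lay at 0.37, 0.02, 0.01 and 0.12, and leaving out a mutant sample also removed the negative sign. Without mutant replicate 2, ND-B14.5B lay at 0.10, ND-13A at 0 and ND-13B at 0.24, and without mutant replicate 3, ND-B12 lay at 0.10. ND-B17.2 and ND-PDSW, at -0.45 and -0.48 with all samples, also lay above 0 without control replicate 2, at 0.08 and 0.03. ND-B8, the homologue of NDUFA2, was the member with the lowest log2 fold change, -1.62, but its signals were 5.03, 2.18 and 2.86 in the mutant and 1.71, 24.1 and 22.3 in the control. These lay below the median of every array, and the standard error was 1.16.

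Complex IV had 8 measured accessory subunits, of which 6 were at least 1.5-fold lower with control replicate 2 and 1 without it (27.5% and 30.2% of all genes). Their median of -0.78 was the lowest of the accessory groups, that of complex I being -0.56 and that of complex III -0.43, and it was -0.48 without control replicate 2. COX5A was at 3967, 2607 and 2566 in the mutant and 4079, 11836 and 5181 in the control. Mutant replicate 1 lay just under control replicate 1 (-1.08, standard error 0.39, limma adjusted p = 0.160). cype, the fly homologue of COX6C, was at 416, 483 and 654 in the mutant and 661, 1453 and 878 in the control, with mutant replicate 3 next to control replicate 1 (-0.89, standard error 0.32, limma adjusted p = 0.160). COX7A, at 5125, 3045 and 3412 in the mutant and 5253, 9804 and 5163 in the control, showed no overlap by a narrow margin (-0.77, standard error 0.31, limma adjusted p = 0.209).

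COX5B, COX7C and COX4 differed by -1.07, -0.78 and -0.76 (limma adjusted p = 0.279 to 0.284). levy, the fly homologue of COX6A, differed by -0.41. CG18809, a gene related to COX6B, differed by 0.22 on its own probe set, with signals of 130 to 188 in the mutant and 104 to 162 in the control. A brighter probe set that detects both CG18809 and COX6B, with signals of 4156 to 6418 in the mutant and 6335 to 12892 in the control, gave -0.78 (limma adjusted p = 0.187), but it was not taken for either gene.

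In complex III the accessory subunits differed least as a group. UQCR-6.4 and ox gave -0.72 and -0.69, UQCR-Q and UQCR-14 gave -0.43 and -0.22, and ox was the only one of these 4 without overlap (limma adjusted p = 0.275). UQCR-14 turned to 0.21 without control replicate 2. UQCR-11 was the sole member at least 1.5-fold higher, with signals of 47.5, 78.3 and 84.9 in the mutant and 47.4, 51.0 and 10.2 in the control. The lowest value was that of control replicate 3, without which the log2 fold change was 0.47, and the difference was not called (log2 fold change 1.23, standard error 0.76, limma adjusted p = 0.451).

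**Figure D3:**
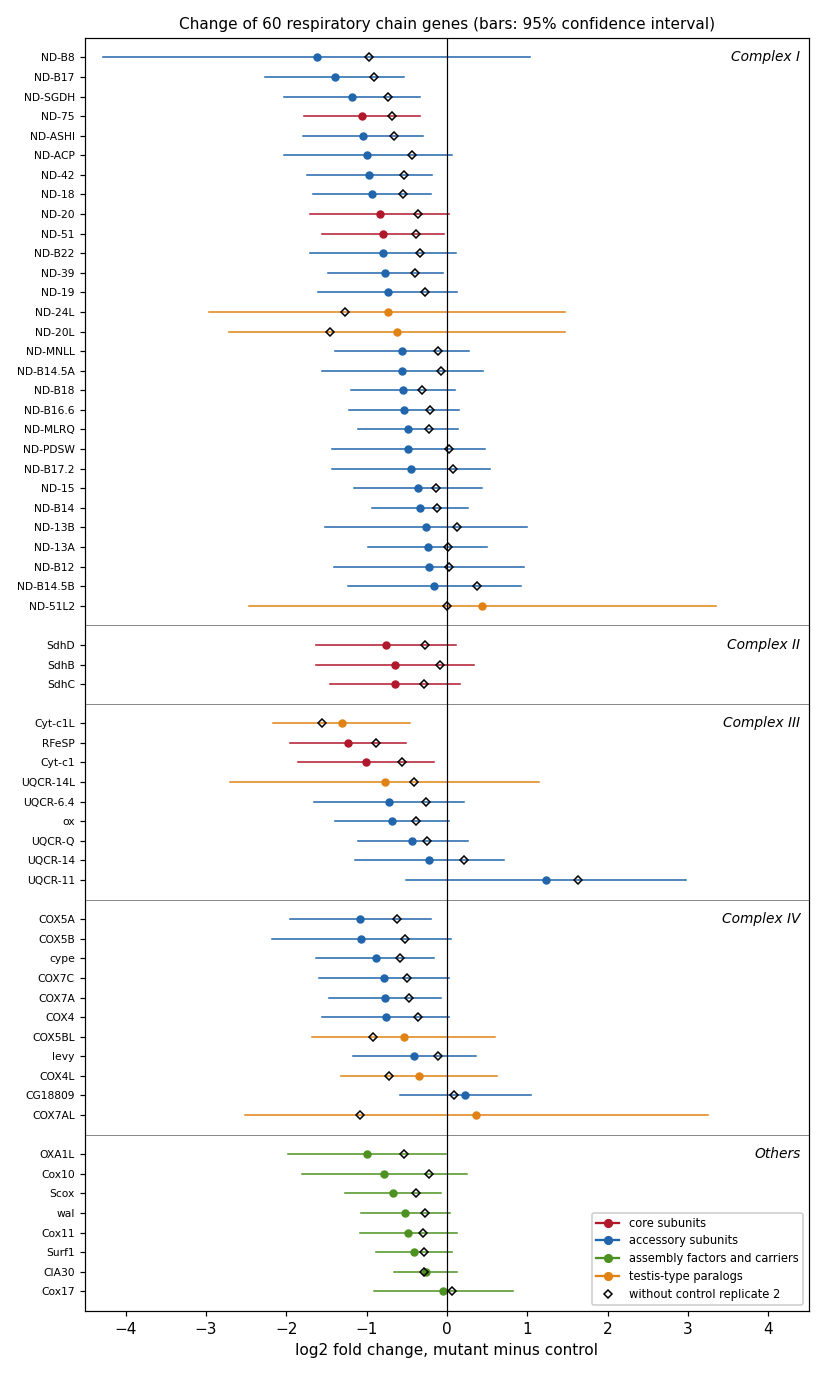
Log2 fold change, mutant minus control (x axis), of the 60 measured respiratory chain genes, grouped by complex down the page and coloured by class, with 95% confidence intervals from limma (n = 3 a group) and open diamonds for the values without control replicate 2. Filled points lie below 0 for 56 genes, and most diamonds of core and accessory subunits lie nearer to 0 than the points, while those of most testis-type paralogs lie further below it.

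With all samples the assembly factors and carriers had a smaller median difference, and control replicate 2 stood out less in them. All 8 lay below 0, with a median log2 fold change of -0.50 and a range of -1.0 to -0.05, and 3 were at least 1.5-fold lower (27.5% of all genes). With control replicate 2 left out, their median was -0.29 and 0 of the 8 were at least 1.5-fold lower (30.2% of all genes). This median was then level with the -0.27 of accessory subunits, that of core subunits being -0.37. For 6 of the 8 (75%), all mutant samples lay below all controls, against 15.6% of all genes. The share was 62.5% for core and 27.8% for accessory subunits. Control replicate 2 was at least 2-fold above the mean of the other controls for 2 of them, OXA1L and Cox10. Scox, a copper-binding factor for complex IV, was at 911, 1061 and 930 in the mutant and 1159, 2267 and 1379 in the control (-0.67, standard error 0.26, limma adjusted p = 0.205). OXA1L, the insertase that places subunits into the inner membrane, was at 236, 383 and 478 in the mutant and 499, 1334 and 513 in the control (-1.0, standard error 0.43, limma adjusted p = 0.255). In both genes the mutant samples lay below all controls.

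Small differences with little spread were found in CIA30 and Surf1. CIA30, the homologue of the complex I assembly factor NDUFAF1, was at 776, 733 and 760 in the mutant and 929, 874 and 921 in the control. This was the only one of the 52 genes other than testis-type paralogs, besides Cox17, UQCR-11 and CG18809, in which control replicate 2 was not the highest sample. The genotypes did not overlap, and the difference was -0.26 (standard error 0.17, limma adjusted p = 0.482). Surf1, which helps build complex IV, was at 716, 610 and 750 in the mutant and 798, 1077 and 892 in the control (-0.41, standard error 0.20, limma adjusted p = 0.331). Cox11 and the alpha subunit of the electron transfer flavoprotein, *wal*, gave -0.48 and -0.52 without overlap. Cox10, which makes heme O, gave -0.78 with overlap, and the copper chaperone Cox17 gave -0.05 with mutant replicate 1 the highest sample.

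The testis-type paralogs followed another pattern across the samples. Their median log2 fold change was -0.58, close to that of the other classes, and 6 lay below 0 (54.4% of all genes). At least 1.5-fold lower were 4 of 8 (27.5% of all genes), and 6 of 8 without control replicate 2 (30.2%). But mutant replicate 1 was the lowest sample for 6 of them (2686 of all 11982 genes) and control replicate 3 the highest for 6 (2574). Control replicate 2 was the lowest control for 7. Their median signals were 26.0, 90.9 and 77.6 in mutant replicates 1, 2 and 3, against 86.0, 48.5 and 126 in control replicates 1, 2 and 3. Most were dim, since 3 lay above the median of every array (Cyt-c1L, COX4L and COX5BL) and 2 lay below it on every array (ND-51L2 and UQCR-14L). The median SD of the log2 signal was 0.92 in the mutant and 1.14 in the control. Their median moved to 0.01 without mutant replicate 1 and to -1.0 without control replicate 2.

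Cyt-c1L, the paralog of Cyt-c1, was the only one lower at an unadjusted p under 0.05. It was at 179, 423 and 352 in the mutant, against 801, 526 and 963 in the control. The genotypes did not overlap, and unlike Cyt-c1 its control replicate 2 was the lowest control (log2 fold change -1.31, standard error 0.37, limma adjusted p = 0.0822). Without control replicate 2 the difference was -1.56 and passed the threshold (limma adjusted p = 0.0354). COX4L was at 194, 379 and 417 in the mutant and 443, 236 and 603 in the control (-0.35, standard error 0.42). COX5BL was at 70.3, 179 and 153 in the mutant and 203, 107 and 274 in the control (-0.54, standard error 0.50). In both, mutant replicate 1 was lowest and control replicate 3 highest, and the genotypes overlapped.

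The other paralogs were near the lower end of the signal range. ND-20L was at 13.4, 48.0 and 55.1 in the mutant and 85.5, 15.8 and 95.2 in the control, and ND-24L at 10.9, 128 and 67.4 in the mutant and 76.8, 36.5 and 157 in the control. Their log2 fold changes of -0.62 and -0.74 had standard errors of 0.91 and 0.97. COX7AL, at 15.4, 53.3 and 87.8 in the mutant and 86.5, 4.38 and 89.5 in the control, gave 0.36 (standard error 1.26). Its sign turned without control replicate 2 (-1.08) and without mutant replicate 3 (-0.17). ND-51L2, at 3.61, 45.8 and 53.0 in the mutant and 50.1, 8.33 and 8.43 in the control, gave 0.44 (standard error 1.27) and turned to -0.14 and -0.24 without mutant replicates 2 and 3. UQCR-14L, at 36.6, 19.1 and 14.2 in the mutant and 59.8, 60.5 and 13.7 in the control, was the only paralog whose highest sample was control replicate 2 (-0.77, standard error 0.84).

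In the counterparts of these genes the samples fell in another order. The counterparts ND-20, ND-51, Cyt-c1, UQCR-14, COX4, COX5B and COX7A were measured, and in all 7 control replicate 2 was the highest sample, as it was in 1 of their 7 paralogs. COX4 was at 8404, 5848 and 6813 in the mutant and 7827, 20656 and 10145 in the control (-0.76, standard error 0.35, limma adjusted p = 0.284). COX5B was at 1767, 816 and 1441 in the mutant and 1465, 5643 and 2300 in the control (-1.07, standard error 0.49, limma adjusted p = 0.283). UQCR-14 was at 1094, 701 and 685 in the mutant and 894, 1711 and 541 in the control (-0.22, standard error 0.40, limma adjusted p = 0.841). In these 3 the genotypes overlapped.

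Most testis marker genes moved in the same samples as the paralogs. All 14 testis markers listed were measured, among them betaTub85D, the tubulin of the male germ line, at 756, 3019 and 2305 in the mutant and 3162, 997 and 3599 in the control. Mutant replicate 1 was the lowest sample for 10 of the 14 (2686 of all 11982 genes) and control replicate 3 the highest for 11 (2574). Control replicate 2 was the lowest control for 12. Their summed signals were 2637 to 8003 in the mutant and 3954 to 9957 in the control. Of the 14, 1 was lower after adjustment, *vis* (-2.36, limma adjusted p = 0.00832), against 3.75% of all genes. At an unadjusted p under 0.05, 3 were lower (limma), against 11.7% of all genes. In *vis*, can, aly and bam all mutant samples lay below all controls, which held for 15.6% of all genes. None of the 14 markers lay below every array median. The larval testis lies within the fat body, the labels give no sex of the larvae, and the part of testis RNA in the values of the paralogs was not tested. The germ line markers vas and otu were below every array median.

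**Figure D4:**
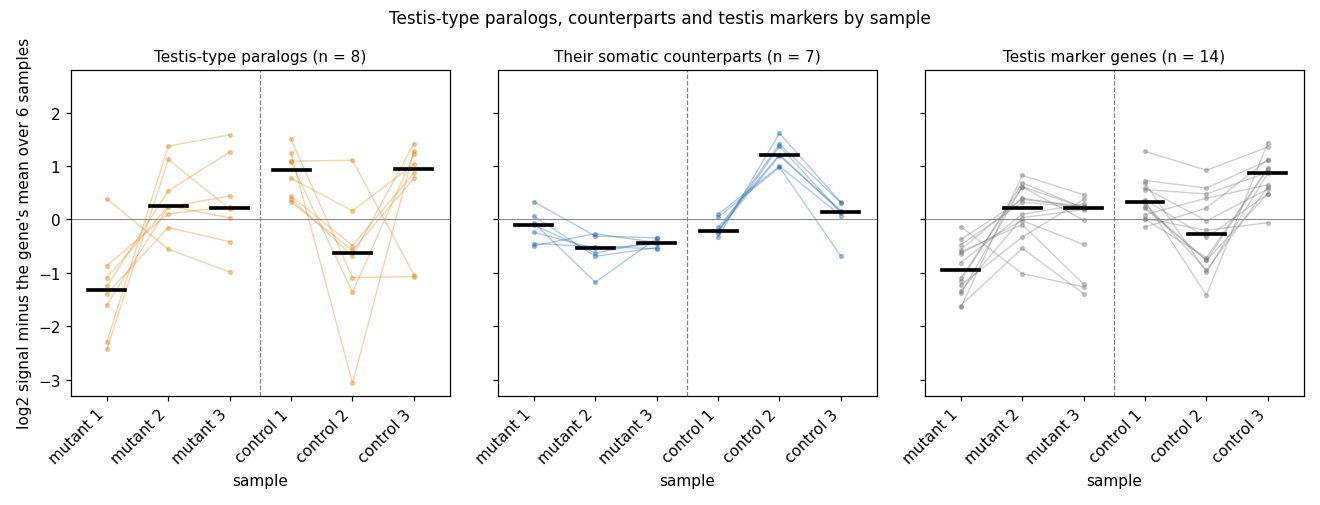
Log2 signal minus the gene's own mean over the 6 samples (y axis) by sample (x axis) for 8 testis-type paralogs, 7 measured counterparts and 14 testis marker genes, with 1 line a gene within each genotype and a black bar at the median. In mutant replicate 1 the medians were -1.32 for the paralogs, -0.11 for the counterparts and -0.95 for the testis markers, and in control replicate 2 they were -0.64, 1.21 and -0.27.

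With all 6 samples, brighter members tended to have lower log2 fold changes. Across the 60 members the mean log2 signal and the log2 fold change correlated with Pearson's r = -0.40 and Spearman's rho = -0.47, and across the 52 that are not testis-type paralogs with -0.36 and -0.52. These values describe genes measured on the same 6 arrays, which are not independent, and both quantities come from the same signals. Control replicate 2, the highest sample for 48 of the 52, enters both. The correlation without that sample, and that over all genes, were not computed. Of the 60 members, 52 lay above the median of every array, so dim signals concern few of them outside the testis-type paralogs.

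Other genes of the respiratory chain, which the study's catalogue does not list, were taken from a list of subunits, paralogs, assembly factors, ubiquinone synthesis enzymes and dehydrogenases. Of 50 such genes 32 were measured, with 24 below 0 (54.4% of all genes) and a median log2 fold change of -0.49. At least 1.5-fold lower were 15 of them (27.5% of all genes). After adjustment 0 were lower and 1 was higher, against 3.75% and 4.45% of all genes. At an unadjusted p under 0.05, 6 were lower and 1 was higher, against 11.7% and 11.3%. Coa7, an assembly factor for complex IV, was the one that rose, with signals of 1394, 1537 and 1758 in the mutant, against 650, 850 and 629 in control samples. No control reached the lowest mutant sample (1.15, standard error 0.20, limma adjusted p = 0.0145). It did not pass when mutant replicate 2, mutant replicate 3 or control replicate 3 was left out (limma adjusted p = 0.0641, 0.0944 and 0.0700).

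The 6 lower ones included subunits and assembly factors of complexes I, III and IV. CG3803, the fly gene for the heme A synthase Cox15, came nearest to the threshold, with signals of 357, 338 and 361 in the mutant and 566, 998 and 651 in the control. Its mutant samples were nearly level and lay below all controls (-1.03, standard error 0.26, limma adjusted p = 0.0533), and without control replicate 2 it passed (-0.79, limma adjusted p = 0.0461). The complex I subunit ND-B14.7 and the complex IV subunit COX8 differed by -0.98 and -1.03 without overlap (limma adjusted p = 0.160 and 0.114). Bcs1, which inserts the Rieske protein into complex III in yeast, differed by -1.59 without overlap (limma adjusted p = 0.0998). The other two were CG11722, at -1.12, and *Pdss2*, of ubiquinone side chain synthesis, at -0.77 (limma adjusted p = 0.0730 and 0.176). The median of the 32 without control replicate 2 was -0.41, against -0.13 for all genes, and the number then at least 1.5-fold lower was not counted. The 32 include 7 paralogs of subunits, and in 6 of these control replicate 2 was the lowest control. With all samples SdhBL, UQCR-11L, COX6CL and COX7AL2 were at least 1.5-fold lower. The other paralogs, ND-51L1, SdhAL and COX6AL, lay above 0.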

How the data were processed

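The deposited values are MAS5 signal intensities, which the authors made from the array scans with GCOS 1.4. The RNA went through 2 rounds of amplification before labelling. No step was taken here to normalize them further in the main analysis, since the trimmed mean, which leaves out 2% at each end, is 500 on every array; median signals were 55.5 to 64.8 in the mutant and 62.4 to 75.5 in the control. Of 18952 probe sets, 183 array controls were left out. Of the other 18769, 13647 had 1 gene symbol in the platform annotation, 402 several and 4720 none, and no gene was named from the last 2 kinds. Symbols were updated through RefSeq gene identifiers for 13544 probe sets. The listed CG6922 was taken as Cox11 from its description in the catalogue.

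Log2 signals were fitted with limma 3.58.1 in R 4.3.3 (lmFit, eBayes with trend), over all probe sets, with Benjamini-Hochberg adjustment. The fit was tested on simulated data. Members, classes and lists (other respiratory chain genes and markers of fat body, salivary gland, testis, germ line, muscle, midgut and hemocytes) were chosen with earlier results of these data known. Signals in each sample are given for any member past the threshold, the members with the 2 smallest p in each subgroup, RFeSP, the testis-type paralogs and their counterparts, and other members were named after their values were seen. Groups follow the sample titles. Alternatives were other scalings and models, a filter on dim probe sets, averaging the probe sets that share a gene and leaving out each sample. No sequence is given.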

Additional observations from a re-analysis of the deposited data

How the results depend on the processing

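The number of members called lower after adjustment was 0 in the main analysis (3.75% of all genes). With single samples left out it was 0 to 3. It was 3 without control replicate 1 (RFeSP, ND-B17 and ND-75). Without control replicate 2 it was also 3 (RFeSP, ND-B17 and Cyt-c1L), or 5% of the members against 5.28% of all genes. It was 3 after quantile normalization, 5 with array weights and 16 at an unadjusted p under 0.05 (11.7% of all genes). The number higher stayed 0 in all of these. The number at least 1.5-fold lower was 33 (27.5% of all genes) and ranged from 13 without control replicate 2 (30.2%) to 42 without control replicate 3. It was 10 when a 2-fold fall was asked for. Where no share of all genes stands beside a count here, it was not computed, and the count cannot be read as particular to the members. Centring each array on its median put the median of all genes at 0.06, against -0.09 without it, and that of the members at -0.52. The median of the testis-type paralogs ranged from -1.0 to 0.01. The cause of these changes was not tested.

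Signs that turned belonged to small or imprecise differences, none of them called. With single samples left out, ranges were -0.50 to 0.01 for ND-13A, -0.70 to 0.24 for ND-13B, -0.57 to 0.10 for ND-B12, -0.43 to 0.37 for ND-B14.5B, -0.81 to 0.08 for ND-B17.2, -0.79 to 0.03 for ND-PDSW, -0.62 to 0.21 for UQCR-14, -0.32 to 0.34 for Cox17, -1.46 to 0.03 for ND-20L, -1.49 to 0.29 for ND-24L, -0.24 to 1.7 for ND-51L2 and -1.08 to 1.1 for COX7AL. Array weights gave 0.23 for ND-B14.5B, 0.14 for UQCR-14 and -0.34 for COX7AL. Adding 100 gave -0.05 for COX7AL, and centring gave 0.10 for Cox17.

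The replicate numbers did not pair the samples, since deviations of same-numbered samples correlated with r = -0.0405, -0.0661 and -0.00683. With a replicate block 0 members were lower and 0 higher, 33 were at least 1.5-fold lower and the median was -0.66, while Coa7 missed the threshold (limma adjusted p = 0.0520). It also missed it in limma without trend (0.127) and by the methods' t-test (0.0725).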
